A study of Mus musculus with 12 samples.

Results

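Oxidative phosphorylation (OXPHOS) is the set of 5 enzyme complexes in the inner mitochondrial membrane that pass electrons to oxygen and make ATP. It was followed here through 96 genes of the 21981 in the deposited protein-coding RNA table of mouse trigeminal tissue. The genes were chosen by a rule on symbols that uses no measured value, set with earlier results of these data known. It takes the Nduf genes of complex I, Sdha to Sdhd of complex II and the Uqcr genes of complex III. It also takes the Cox4 to Cox8 genes of complex IV, the Atp5 genes of complex V and the genes whose symbol starts with mt-. Of the 96, 83 are nuclear genes (37 of complex I, 4 of complex II, 8 of complex III, 18 of complex IV and 16 of complex V) and 13 lie on the mitochondrial DNA (7 of complex I, 1 of complex III, 3 of complex IV and 2 of complex V). Complexes were assigned by symbol, so Ndufa4 and Ndufa4l2 count under complex I, and Ndufab1 lies outside the rule.

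The subunits of complexes I, III, IV and V come from both genomes, whereas complex II is encoded in the nucleus alone. Nuclear subunits are made in the cytoplasm and imported. The mitochondrial genes are transcribed as long RNAs from each strand of a circular DNA, cut into shorter messages and translated inside the organelle. Neurons draw most of their ATP from this pathway, and firing, axonal transport and synaptic release all use it.

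The study carries chronic inflammatory pain of the temporomandibular joint in its title and took wild-type C57BL/6 mice of 8 weeks. RNA came from 2 places on the trigeminal pain pathway: the trigeminal ganglion (TG), which holds the cell bodies of facial sensory neurons, and the caudal part of the spinal trigeminal nucleus (Sp5C), where their nociceptive fibres end in the brainstem. There were 12 libraries in 4 groups of 3, labelled STG, CTG, SSp5C and CSp5C. What S and C mean is not spelled out in the labels; both letters are kept, and each difference is C minus S. Ribosomal RNA was depleted and libraries were strand-marked. Separate animals are not named for the 3 libraries of a group. The p-values thus cover only the spread among these libraries, part or all of which may be technical.

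Values are FPKM (fragments mapped to a transcript, scaled by its length and by all mapped fragments of the library), which are corrected for transcript length, so levels of different genes can be set side by side. Transcripts were summed per gene. Differences are on the log2(FPKM + 1) scale, which understates changes of genes near or below 1 FPKM. The FPKM values hold no read counts, so the depth behind each value is unknown and no counting interval is given. Summed markers followed the labelled tissue. Those of 6 sensory neuron genes came to 719 to 809 FPKM in TG and 10.5 to 37.6 FPKM in Sp5C, those of 6 Schwann cell genes to 4337 to 5632 and 41.6 to 66.3 FPKM, and those of 5 astrocyte genes to 38.4 to 61.7 and 458 to 624 FPKM.

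As a group, the OXPHOS messages were abundant in every library. The 13 mitochondrial genes alone held 8.29% to 10.6% of all FPKM of the protein-coding table in TG and 9.46% to 17.3% in Sp5C, and every one of the 13 was among the 24 highest genes of each library. Of the 83 nuclear genes, 79 passed the filter of a mean of at least 1 FPKM over the 12 libraries, and their tissue means ran from 1.04 to 381 FPKM in TG (median 58.6) and from 1.13 to 496 FPKM in Sp5C (median 73.6). The 4 that did not pass, Cox6a2, Cox7b2, Cox8b and Cox8c, are isoforms of complex IV subunits with a ubiquitous partner.

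The first comparison asked how the 2 tissues differ, each letter weighing the same. Most OXPHOS genes were lower in TG than in Sp5C: 70 of the 92 genes tested were lower and 2 were higher at an adjusted p under 0.05 (limma, Benjamini-Hochberg over 13081 genes). Over all genes tested, 35% were lower, 36.2% were higher and 71.2% were called in either direction, so a call as such is common here and it is the direction of the members that is one-sided. The median log2 difference, TG minus Sp5C, was -0.35 for the 79 nuclear genes and -0.64 for the 13 mitochondrial genes, beside 0.0093 over all genes tested. In 47 of the 92 genes, 44 of them nuclear, every TG library was below every Sp5C library, as it was for 26.1% of all genes. None had every TG library above every Sp5C library, against 27.6% of all genes. Both tissues are mixtures, and in such bulk RNA fewer cells of a type and less RNA per cell cannot be told apart. Markers of the cell types differed as given above, oligodendrocyte markers came to 626 to 1031 FPKM in TG and 2503 to 3790 FPKM in Sp5C, and the part of cell composition in the lower OXPHOS levels was not tested.

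**Figure D1:**
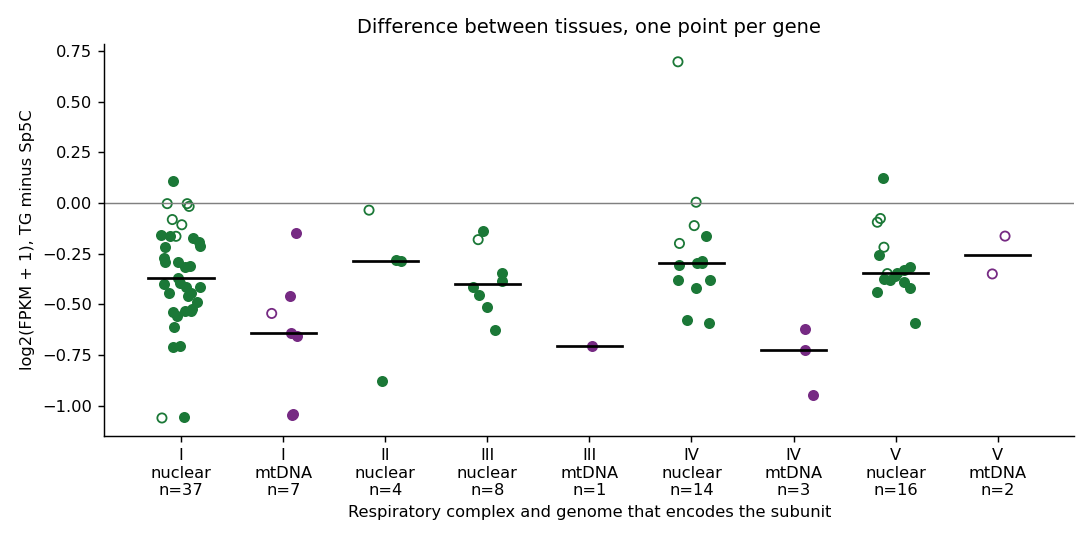
Difference between tissues for the 92 genes tested, in log2(FPKM + 1), TG minus Sp5C, by complex and by the genome that encodes the subunit. Each point is a gene, filled where the adjusted p was under 0.05, and the black lines are medians; nearly all points lie below 0, with the mitochondrial genes of complexes I, III and IV lowest as groups.

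Complex I takes electrons from NADH. By symbol, 37 nuclear genes were counted under complex I, Ndufa4 and Ndufa4l2 among them. It had 29 lower and 1 higher, with a median difference of -0.37. Its accessory subunit Ndufa12 read 21.2, 18.8 and 23.1 FPKM in the STG libraries, 23.8, 16.8 and 24.4 in CTG, 35.1, 48.7 and 43.7 in SSp5C, and 59.6, 37.7 and 50.1 in CSp5C. No TG library reached any Sp5C library, and the difference was -1.06 ± 0.13 (SE; limma adjusted p = 2.6e-05). Ndufs3, a core subunit of the hydrophilic arm, has as large a mean difference (-1.06 ± 1.13, adjusted p = 0.42), but it is listed at 0 in STG replicate 2, CTG replicate 3 and CSp5C replicate 3 and at 12.7 to 27.7 FPKM elsewhere, through the only transcript the table gives for it. Its value turns on those 3 entries and no direction can be read from it.

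At the other end of complex I stood Ndufv3, a subunit of the NADH-oxidising module, with 51.3 to 58.7 FPKM in TG and 46.7 to 54.5 FPKM in Sp5C (difference 0.11 ± 0.04 SE, adjusted p = 0.046). That call ended in 14 of the 21 other fits tried. Ndufa4, which was first assigned to complex I and is now known as a subunit of complex IV, read 127, 126 and 188 FPKM in STG and 120, 185 and 156 in CTG, a spread wider than the 140 to 155 FPKM of the 6 Sp5C libraries. Its difference was -0.0032 with a 95% interval from -0.27 to 0.26.

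In complex II, which feeds electrons from succinate and is also an enzyme of the citric acid cycle, Sdha stood apart from its partners. This flavoprotein subunit read 70.4, 66.3 and 70.3 FPKM in STG, 68.8, 69.9 and 79.3 in CTG, 131, 132 and 130 in SSp5C, and 133, 130 and 129 in CSp5C. The TG mean was 0.542 of the Sp5C mean and the difference was -0.88 ± 0.04 (SE, adjusted p = 3.2e-09), with a spread in Sp5C of only 1.31 FPKM (SD, n = 6). The iron-sulfur subunit Sdhb differed by -0.28 (adjusted p = 0.00011) and the membrane anchor Sdhc by -0.29 (adjusted p = 0.0001). The other anchor, Sdhd, read 46.0 to 55.5 FPKM in TG and 48.7 to 52.8 FPKM in Sp5C and did not pass (-0.04, 95% interval -0.13 to 0.06). The 4 genes encode proteins that stand 1 to 1 in the complex, and their log2 differences between tissues ran from -0.88 to -0.04.

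Complex III, which passes electrons from ubiquinol to cytochrome c, had 7 lower of 8 nuclear genes and a median difference of -0.40. The core protein gene Uqcrc2 read 47.9 to 63.4 FPKM in TG (median 51.5) and 79.7 to 86.2 in Sp5C (median 81.7), with no overlap (-0.63 ± 0.06 SE, adjusted p = 3.6e-06). Uqcrb, the ubiquinone-binding small subunit, differed by -0.51 (adjusted p = 4.5e-06). The smallest differences were those of Uqcr11 (-0.14, adjusted p = 0.024) and Uqcrq (-0.18, adjusted p = 0.095), whose TG and Sp5C libraries overlapped.

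Complex IV, cytochrome c oxidase, had 10 lower of the 14 nuclear genes tested. Cox6c read 146 to 155 FPKM in 5 TG libraries, 215 in CTG replicate 3 and 219 to 252 in Sp5C (-0.59 ± 0.08 SE, adjusted p = 3.7e-05). Cox4i1, which carries the matrix domain that binds ATP, read 232, 136 and 257 FPKM in STG, 237, 244 and 290 in CTG, 319, 265 and 410 in SSp5C, and 429, 251 and 405 in CSp5C. Its tissues overlapped, STG replicate 2 and CSp5C replicate 2 being the lowest of their tissue (-0.58 ± 0.19 SE, adjusted p = 0.019). Cox7a2l, which takes part in joining complexes III and IV, read 65.5 to 74.96 FPKM in TG and 70.5 to 82.7 FPKM in 5 Sp5C libraries, but 1.24 FPKM in SSp5C replicate 2, where its main transcript is listed at 0. With that library the difference was 0.70 (adjusted p = 0.44), and without it -0.17 (adjusted p = 0.019), so the sign rests on 1 entry.

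Several subunits of complex IV and subunit c of complex V have alternative genes, and the same gene of each set was the high one in both tissues. Cox4i1 was at 136 to 429 FPKM and its lung and hypoxia isoform Cox4i2 at 0.484 to 1.85 FPKM, with a tissue difference of 0.0037 (95% interval -0.26 to 0.26). Among genes for which a heart and muscle form is known, Cox6a1 read 185 to 290 FPKM and Cox6a2 at most 0.539, Cox8a 173 to 250 and Cox8b at most 1.61, and Cox7a2 101 to 131 against 2.99 to 6.18 for Cox7a1. The highest Cox6a2 entry fell in CTG replicate 1, where 10 skeletal muscle markers summed to 25.4 FPKM against 0.825 to 2.13 FPKM in the other 11 libraries; Cox7a1 read 3.90 FPKM there. The testis isoforms Cox6b2 (0.890 to 2.47 FPKM), Cox7b2 (at most 0.521) and Cox8c (listed at 0 in 11 libraries) were far below Cox6b1 (157 to 214 FPKM), Cox7b and Cox8a.

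Ndufa4l2, the hypoxia-induced relative of Ndufa4, was at 0.813 to 1.37 FPKM in TG and 1.40 to 2.20 FPKM in Sp5C, lower in TG by -0.44 on the log2 scale (adjusted p = 0.00069), where Ndufa4 itself showed no call. The 3 nuclear genes for the rotor ring of ATP synthase encode the same mature protein behind different import signals. Atp5g3 was highest, at 159 to 194 FPKM in TG and 216 to 222 in Sp5C (-0.36, adjusted p = 1.7e-05), while Atp5g1 (52.6 to 83.5 FPKM over the 12 libraries, -0.08, adjusted p = 0.56) and Atp5g2 (27.7 to 58.5 FPKM, -0.35, adjusted p = 0.062) overlapped between tissues. The interval of Atp5g2 ran from -0.69 to -0.01.

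**Figure D2:**
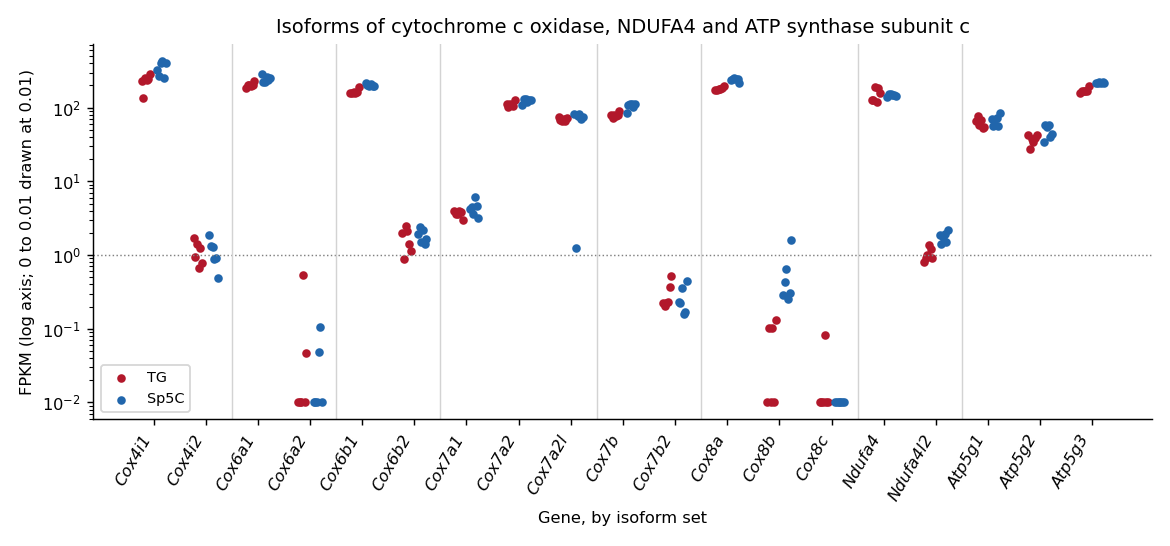
FPKM (log axis) of the isoform sets in the 6 TG and 6 Sp5C libraries, one point per library, with values under 0.01 drawn at 0.01 and a dotted line at 1 FPKM. Cox4i2, Cox6a2, Cox6b2, Cox7b2, Cox8b and Cox8c lie at or under 2.47 FPKM in both tissues, and the single Cox7a2l point at 1.24 FPKM is SSp5C replicate 2.

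Complex V, the ATP synthase, had 11 lower and 1 higher of its 16 nuclear genes (median -0.35). Atp5b, the catalytic beta subunit, was the most abundant nuclear OXPHOS message, at 363, 369 and 382 FPKM in STG, 367, 386 and 420 in CTG, 515, 497 and 493 in SSp5C, and 494, 491 and 483 in CSp5C. Its tissues did not overlap (-0.38 ± 0.04 SE, adjusted p = 6.3e-06). The alpha subunit Atp5a1 differed by -0.44 (adjusted p = 2.9e-06) and the coupling factor Atp5j by -0.59 (adjusted p = 1.1e-06). Atp5d, the delta subunit of the central stalk, went the other way: 79.4, 81.2 and 81.9 FPKM in STG, 87.1, 91.3 and 96.0 in CTG, 84.5, 81.3 and 78.98 in SSp5C, and 77.1, 76.1 and 75.8 in CSp5C. It was higher in TG by 0.12 ± 0.03 (SE, adjusted p = 0.0073). The STG and SSp5C libraries overlapped, while every CTG library lay above all of them and every CSp5C library below.

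The promoters of nuclear OXPHOS genes are known for sites of the factors NRF1, GABP (an ETS factor), YY1 and the oestrogen-related receptors. RefSeq promoters (GRCm38.p6, 250 bases before to 50 after each start) matched 68 of the 83 nuclear genes, and exact motifs for these 4 factors were searched on both strands. The NRF1 core CGCATGCG, a palindrome, was in the windows of 13.2% of the 68 genes (9 genes), beside 4.2% of all genes tested with a matched promoter. With a further G before it and a further C after it, the longer form GCGCATGCGC was in 7.35% (5 genes), beside 2.28%. Of the 9 genes with the core, 7 were among the 49 matched genes that were lower in TG and 2 among the 17 matched genes that were tested and not lower. The YY1 motif AAGATGGC was in 14.7% (10 genes), beside 5.09%. It began 22 to 38 bases after the start in Atp5j2, Ndufa3, Ndufa9, Ndufb8, Ndufc1, Ndufs4, Ndufs6 and Ndufs7. It began 3 bases before the start in Atp5f1 and 88 before it in Atp5j. The ETS motif CCGGAAG was in 23.5% (16 genes), beside 18.9%, and the receptor motif TCAAGGTCA in 2.94% (2 genes), beside 0.348%. The YY1 motif was found in 10 of the 49 matched genes that were lower in TG and in 0 of the 17 matched genes that were tested and not lower, where a count of 0 says only that these letters are not in those windows. Apart from the longer NRF1 form, which contains the core, none of the motifs contains another.

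The 4 genes with the longer NRF1 form ahead of the start are shown because they carry the same 10 letters and are split between called and not called. Each run gives the 170 bases before the start, 5′ to 3′ on the gene's strand, with the core in capitals and other motifs left in lower case; the positions are chr17:56717592-56717761 (plus strand) for Ndufa11, chr5:115348959-115349128 (minus strand) for Cox6a1, chr15:102671048-102671217 (minus strand) for Atp5g2 and chr5:108434400-108434569 (minus strand) for Atp5k.
Ndufa11: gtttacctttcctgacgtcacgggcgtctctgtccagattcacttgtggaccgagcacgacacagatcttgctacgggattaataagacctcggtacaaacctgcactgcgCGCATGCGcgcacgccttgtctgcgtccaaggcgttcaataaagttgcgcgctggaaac
Cox6a1: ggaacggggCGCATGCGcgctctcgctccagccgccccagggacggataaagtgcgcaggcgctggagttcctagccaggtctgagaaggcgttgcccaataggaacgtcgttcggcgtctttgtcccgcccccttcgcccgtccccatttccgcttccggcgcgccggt
Atp5g2: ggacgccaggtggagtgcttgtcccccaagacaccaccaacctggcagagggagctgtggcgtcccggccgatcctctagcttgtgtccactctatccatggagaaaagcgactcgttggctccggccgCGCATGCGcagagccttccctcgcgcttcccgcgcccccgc
Atp5k: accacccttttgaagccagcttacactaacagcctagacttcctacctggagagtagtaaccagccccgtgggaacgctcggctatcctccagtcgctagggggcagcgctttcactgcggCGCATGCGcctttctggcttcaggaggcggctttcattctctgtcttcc

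The core begins 59 bases before the start in Ndufa11, 161 in Cox6a1, 41 in Atp5g2 and 49 in Atp5k. Ndufa11 (-0.17, adjusted p = 0.022) and Cox6a1 (-0.29, adjusted p = 0.004) were lower in TG. Atp5g2 (-0.35, adjusted p = 0.062) and Atp5k (-0.22, adjusted p = 0.057) had mean differences of like size that did not pass. Both of the latter read low in SSp5C replicate 1, at 34.3 and 59.9 FPKM, against 40.4 to 58.5 and 78.5 to 88.9 FPKM in the other Sp5C libraries. Without that library Atp5g2 passed (-0.46, adjusted p = 0.0080).

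The mitochondrial genes lay well above the nuclear ones, and 10 of 13 were lower in TG. Quantile normalization, which forces the values at each rank to be the same in every library and so holds the top 24 genes nearly fixed, left 3 of these calls and a median of -0.13, with mt-Co2 at 0.000637. Cytochrome c oxidase subunit mt-Co1 read 4667, 4836 and 4476 FPKM in STG, 5189, 4495 and 4338 in CTG, 6771, 9572 and 9467 in SSp5C, and 10985, 9220 and 8507 in CSp5C. It was highest of the 13 in every library, and no TG library reached an Sp5C library (-0.95 ± 0.10 SE, adjusted p = 6.5e-06). The complex I gene mt-Nd1 read 2289, 2049 and 2172 FPKM in STG, 2477, 2033 and 1923 in CTG, 2694, 5080 and 4759 in SSp5C, and 6156, 4261 and 4363 in CSp5C (-1.04 ± 0.16 SE, adjusted p = 0.00012). A further 8 genes passed in the same direction, among them mt-Nd2 (-1.04, adjusted p = 0.0004), mt-Cytb, the cytochrome b of complex III (-0.71, adjusted p = 0.0011), mt-Co3 (-0.72, adjusted p = 0.00023), mt-Co2 (-0.62, adjusted p = 0.0007), mt-Nd4 (-0.66, adjusted p = 0.0022), mt-Nd5 (-0.64, adjusted p = 0.0024) and mt-Nd4l (-0.46, adjusted p = 0.029). The mt-Nd4l call ended in 9 of the 21 other fits, 8 of which left out a single library (for example adjusted p = 0.069 without CTG replicate 3). Of the 13, 3 did not pass: mt-Atp6 (-0.16, adjusted p = 0.78) and mt-Atp8 (-0.35, adjusted p = 0.15) of the ATP synthase, and mt-Nd3 (-0.55, adjusted p = 0.0501).

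SSp5C replicate 1 stood apart. It was the lowest Sp5C library for 13 of 13 mitochondrial genes, and its summed mitochondrial level was 27050 FPKM against 43060 to 55184 FPKM in the other 5 Sp5C libraries, inside the TG range of 24231 to 31327 FPKM. For mt-Atp6 it read 602 FPKM where the other 5 read 4521 to 5956 FPKM, or 0.115 of their mean. For mt-Atp8 it read 1328 against 2882 to 3493 FPKM (0.421), and for mt-Nd3 650 against 1309 to 1837 FPKM (0.436), while the cytochrome oxidase genes kept 0.709 (mt-Co1), 0.728 (mt-Co2) and 0.751 (mt-Co3) of the mean of the others, and mt-Nd6 0.87. The genes were thus low there to unequal degrees. The same library had the largest share of its FPKM in a single assembled locus of the noncoding tables, 41.3% of all FPKM of the 3 deposited tables against 28.1% to 32.2% in the other Sp5C libraries, and its nuclear OXPHOS genes went both ways: it was the highest Sp5C library for 35 of 79, beside 17.1% of all genes tested, and the lowest for 17 of 79, beside 27.6%. Whether library content bears on its mitochondrial values was not tested. Without it, 13 of 13 mitochondrial genes were lower in TG, with a median of -0.79, and mt-Atp6 became -0.69 (adjusted p = 0.00039), mt-Atp8 -0.56 (adjusted p = 0.00085) and mt-Nd3 -0.74 (adjusted p = 0.0019).

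**Figure D3:**
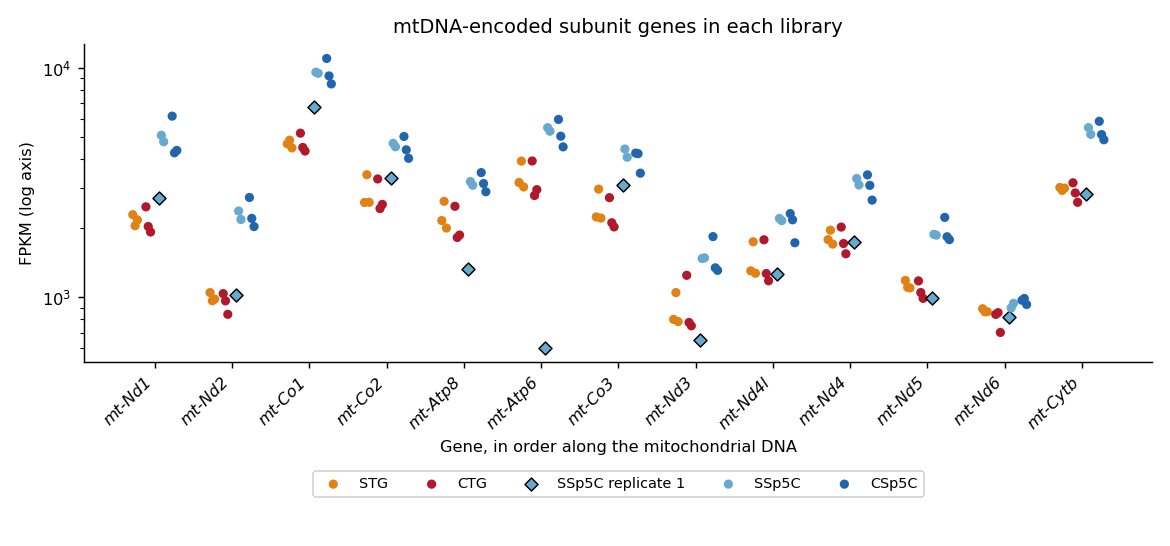
FPKM (log axis) of the 13 mitochondrial genes in order along the mitochondrial DNA, one point per library, coloured by group. SSp5C replicate 1 (black-edged diamonds) lies below every other Sp5C library at all 13 genes and furthest at mt-Atp6, where it reads 602 FPKM.

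The genes mt-Atp8 and mt-Atp6 overlap, so some reads belong to both. In GENCODE M21 (GRCm38) mt-Atp8 runs from 7766 to 7969 and mt-Atp6 from 7927 to 8607 on the plus strand of chromosome M, and they share 43 bases, 21.1% of mt-Atp8 and 6.31% of mt-Atp6, in which both proteins are encoded in different frames. The shared stretch, chrM:7927-7969, is shown because reads inside it fit both genes, while the rest of mt-Atp8 lies outside it. The stretch starts with the ATG of mt-Atp6, given in capitals.
mt-Atp8 and mt-Atp6: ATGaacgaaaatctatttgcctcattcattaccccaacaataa

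The ratio of mt-Atp6 to mt-Atp8 was 1.47 to 1.58 in the 6 TG libraries and 1.57 to 1.72 in 5 Sp5C libraries, so the pair kept close to one proportion in 11 libraries. In SSp5C replicate 1 it was 0.454, with mt-Atp6 below mt-Atp8.

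Of the 13 genes, 12 are read from one strand of the mitochondrial DNA, and mt-Nd6, at 13552 to 14070 on chromosome M, is the only one on the minus strand. It also had the smallest spread over the series, with 702 to 890 FPKM in TG and 822 to 987 FPKM in Sp5C. Its tissue difference of -0.15 (SE 0.06, limma adjusted p = 0.043) was the smallest of the 13, with an interval from -0.28 to -0.02. That does not meet the intervals of the genes with the largest differences, mt-Nd1 (-1.39 to -0.69), mt-Co1 (-1.18 to -0.72) and mt-Nd2 (-1.46 to -0.63). It does meet those of other plus-strand genes, such as mt-Atp6 (-0.16, SE 0.48), mt-Atp8 (-0.35, SE 0.20), mt-Nd3 (-0.55, SE 0.23) and mt-Nd4l (-0.46, SE 0.17). The call for mt-Nd6 ended in 10 of the 21 other fits. As a share of the summed mitochondrial level, mt-Nd6 made up 2.69% to 3.41% in TG and 1.76% to 2.16% in 5 Sp5C libraries, and 3.04% in SSp5C replicate 1. The difference between strands was not tested as such.

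Set against each other within a library, which cancels any scaling common to both, the summed mitochondrial level was 4.80, 5.49 and 4.45 times the summed nuclear level in STG, 5.46, 4.31 and 3.65 times in CTG, 3.49, 6.70 and 6.35 times in SSp5C, and 7.10, 6.40 and 5.68 times in CSp5C. The 6 TG libraries were thus below 5 of the 6 Sp5C libraries, and SSp5C replicate 1 was lowest of all 12. On the log2 scale the ratio was 2.22 ± 0.22 (SD, n = 6) in TG and 2.54 ± 0.37 (SD, n = 6) in Sp5C, a difference of -0.32 that is about the size of the pooled spread within groups (0.319). Without SSp5C replicate 1 the Sp5C mean was 2.68 ± 0.12 (SD, n = 5) and the difference -0.47. No p-value is given for this score, since it is built over the members.

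**Figure D4:**
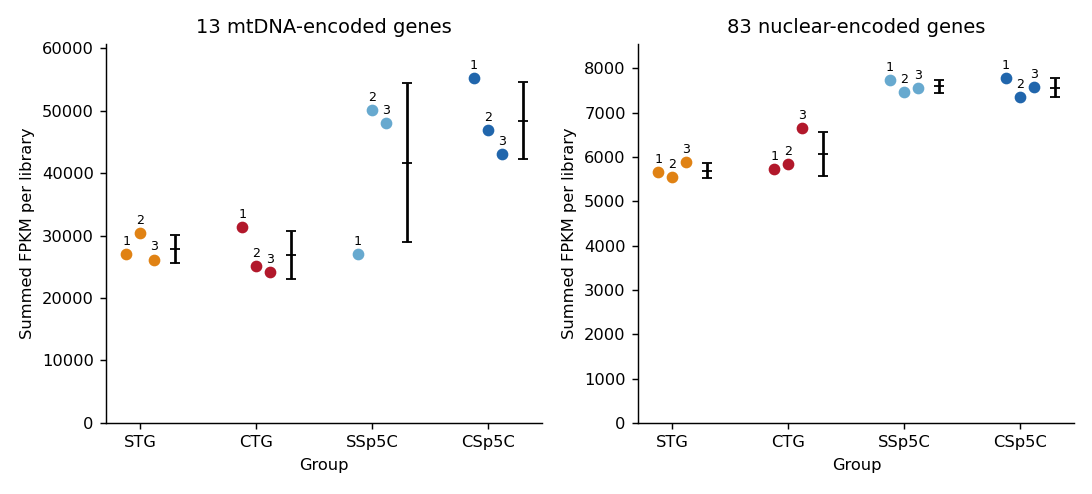
Summed FPKM of the 13 mitochondrial genes (left) and the 83 nuclear genes (right) in each library, numbered by replicate, with the group mean and SD (n = 3) as bars beside the points. The nuclear sums separate the tissues, with 5540 to 6646 FPKM in TG and 7347 to 7776 FPKM in Sp5C, and the mitochondrial sums do so in all libraries but SSp5C replicate 1.

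Next came C against S within the ganglion. No OXPHOS gene passed: 0 of 92 were called by limma, beside 0.00775% of all genes (1 of 12906), and 3 had an unadjusted p under 0.05, beside 4.7% of all genes. The means nevertheless leaned in opposite directions for the 2 genomes. CTG was above STG in 69 of 79 nuclear genes and in 2 of 13 mitochondrial genes, beside 48% of all genes, and the median difference was 0.08 for nuclear, -0.06 for mitochondrial and -0.0058 for all genes.

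CTG replicate 3 stood apart in the same way. It was the highest TG library for 62 of the 79 nuclear genes, or for 21.3% of all genes tested, and the lowest for 10 of the 13 mitochondrial genes, with a median deviation from the TG mean of 0.16 for the nuclear genes, -0.20 for the mitochondrial genes and -0.02 for all genes. Without it, CTG was above STG in 51 of 79 nuclear and 7 of 13 mitochondrial genes, and the medians were 0.02 and 0.0033. The mitochondrial lean also changed with other libraries. CTG was above STG in 7 of 13 mitochondrial genes without STG replicate 2 (median 0.0057), in 6 without CTG replicate 2 (median -0.04), in 0 without STG replicate 3 (median -0.10) and in 0 without CTG replicate 1 (median -0.17), while the nuclear count stayed between 61 and 70 in these 4 fits. CTG replicate 3 also had the highest sum of 7 neuron markers (2911 FPKM against 2234 to 2548 in the other TG libraries). Its sum of Schwann markers was the lowest (4337 against 4709 to 5632). Its bone marrow and neutrophil sum was 281 FPKM, beside 816 in CTG replicate 1 and 3.38 to 19.7 in the remaining TG libraries. The part of these in the OXPHOS values was not tested. A further marker sum set STG replicate 1 apart: 6 pituitary genes came to 2849 FPKM there, against 51.5 FPKM in CTG replicate 1 and 2.57 to 15.4 FPKM in the remaining TG libraries. Without STG replicate 1, CTG was above STG in 67 of 79 nuclear and 2 of 13 mitochondrial genes, and 71 of the 92 genes were called between tissues. For Cox6c, where CTG replicate 3 read 215 FPKM, the table also shifts between 2 transcripts: ENSMUST00000014457 read 207 FPKM there and 62.9 to 71.6 in the other TG libraries, while ENSMUST00000153512 read 7.66 against 77.2 to 81.9.

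**Figure D5:**
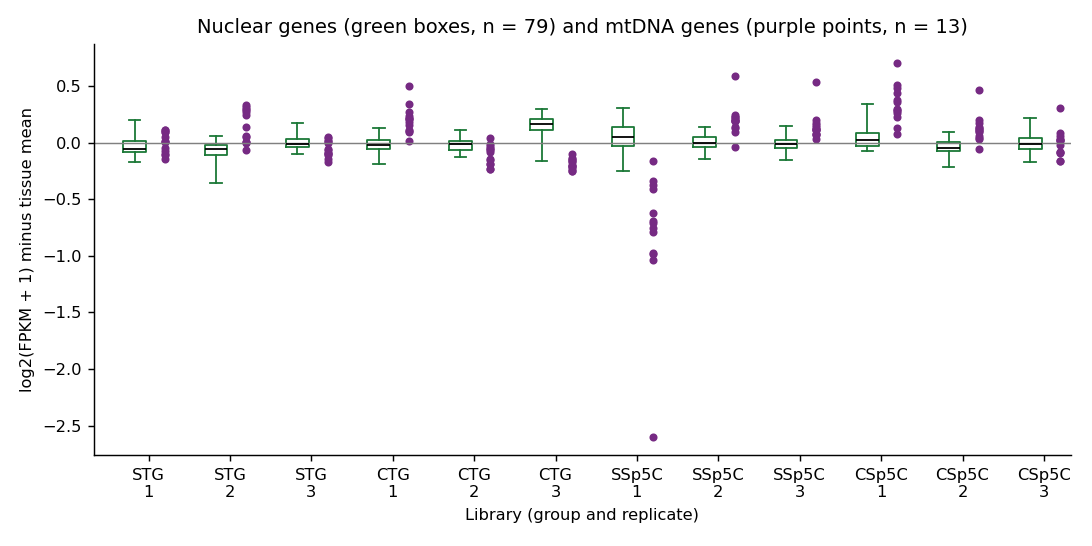
Deviation of each library from its tissue mean in log2(FPKM + 1), for 79 nuclear genes (green boxes, median and quartiles with whiskers at the 5th and 95th percentiles) and 13 mitochondrial genes (purple points). In CTG replicate 3 the nuclear box lies above 0 and most mitochondrial points below it, and in SSp5C replicate 1 the mitochondrial points lie below 0, with mt-Atp6 furthest.

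The genes with the smallest p in TG are given by value. Atp5d, whose values stand above, was higher in every CTG library than in every STG library, with a difference of 0.18 (95% interval 0.04 to 0.31, unadjusted p = 0.02, limma adjusted p = 0.96). Sdhb read 50.9, 51.8 and 51.2 FPKM in STG and 54.7, 57.5 and 59.4 in CTG, again without overlap (0.15, 95% interval 0.02 to 0.28, adjusted p = 0.96). Uqcrb read 65.3, 66.5 and 68.7 FPKM in STG and 74.0, 70.9 and 78.8 in CTG (0.15, adjusted p = 0.96). In the other direction stood Cox4i2 (-0.30), Atp5g1 (-0.20) and mt-Nd6 (-0.13), each with an adjusted p of 0.96 and an interval that spans 0. In 10 of the 92 genes every CTG library was above every STG library, beside 4.47% of all genes, and in 1, mt-Nd6, every CTG library was below, beside 6.32%.

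The same comparison in the brainstem gave 0 of 92 genes called by limma, beside 0.0315% of all genes (4 of 12690), and 3 with an unadjusted p under 0.05, beside 5.02%. CSp5C was above SSp5C in 26 of 79 nuclear genes (median -0.03) and in 13 of 13 mitochondrial genes (median 0.27), beside 50.3% of all genes (median 0.00071). Without SSp5C replicate 1 the mitochondrial count was 4 of 13 and their median -0.01, so the higher mean of all 13 rests on that library. The nuclear count was then 38 of 78 tested, with a median of -0.00065. The smallest p belonged to Cox4i2, at 1.85, 1.34 and 1.31 FPKM in SSp5C and 0.897, 0.913 and 0.484 FPKM in CSp5C (-0.50, 95% interval -0.86 to -0.15, unadjusted p = 0.012, adjusted p = 0.90), a gene near the filter. Ndufb4, a small subunit of complex I, read 32.7, 33.9 and 36.9 FPKM in SSp5C and 39.8, 37.5 and 37.8 in CSp5C (0.15, adjusted p = 0.93). Atp5k, mt-Nd6, Atp5s and Uqcrfs1 followed with differences of 0.24, 0.12, -0.19 and -0.10, each with an adjusted p of 0.93. In 3 genes every CSp5C library was above every SSp5C library, beside 4.69% of all genes, and in 6 every one was below, beside 6.2%. Some marker sums also parted these groups. Oligodendrocyte markers came to 3590 to 3790 FPKM in SSp5C and 2503 to 3299 in CSp5C. The 4 spermatid genes came to 6.93 to 8.43 FPKM in SSp5C and 0 in CSp5C (Prm1 and Tnp1 limma adjusted p = 0.0088 and 0.015). Neuron and astrocyte sums overlapped. The part of these in the OXPHOS values was not tested.

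Whether C against S differed between tissues was tested directly. None of the 92 genes passed (0% of all 13081 genes did), and 4 had an unadjusted p under 0.05, beside 5.41% of all genes. Atp5d had the smallest p: its values were higher in all CTG than in all STG libraries and lower in all CSp5C than in all SSp5C libraries, and the difference of the differences was 0.27 (95% interval 0.12 to 0.42, unadjusted p = 0.0023, limma adjusted p = 0.86). Sdhb (0.26) and Ndufb3 (0.28) followed, with adjusted p of 0.87 and 0.88, and in the other direction mt-Nd6 (-0.25, adjusted p = 0.90), Atp5g1 (-0.38, adjusted p = 0.90) and mt-Nd5 (-0.43, adjusted p = 0.92). The medians were 0.10 for nuclear and -0.30 for mitochondrial genes, beside -0.0070 for all genes. Without SSp5C replicate 1 alone they were 0.09 and -0.01, without CTG replicate 3 alone 0.04 and -0.22, and 0.02 and 0.05 when CTG replicate 3 and SSp5C replicate 1 were both left out. The log2 ratio of mitochondrial to nuclear sums was 2.29 ± 0.15 in STG and 2.14 ± 0.29 in CTG, and 2.40 ± 0.52 in SSp5C and 2.67 ± 0.16 in CSp5C (SD, n = 3 each), so the TG difference was no larger than either SD of its groups, and the Sp5C difference lay between the SDs of CSp5C and SSp5C. They were -0.15 in TG, or -0.01 without CTG replicate 3, and 0.26 in Sp5C, or -0.04 without SSp5C replicate 1.

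Other genes of the pathway were counted for TG against Sp5C, where 35% of all genes tested were lower, 36.2% were higher and 71.2% were called in either direction. Of the 13 citric acid cycle genes, 12 were lower in TG and 1 was higher (median -0.53). Among them, Suclg1, of succinyl-CoA ligase, differed by -0.64 and the fumarase Fh1 by -0.59. Cyc1, the cytochrome c1 subunit of complex III, whose symbol lies outside the rule for the 96 genes, was lower (-0.37), as was the electron carrier Cycs, cytochrome c (-0.17). Of 7 genes for exchange of nucleotides and phosphate, 6 were lower and 1 higher (median -0.21), led by the ADP/ATP carrier Slc25a5 (-0.55).

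Further lists hold genes that serve the complexes without being part of them. Of 47 assembly factors, which help to build the complexes, 21 were lower and 8 higher (median -0.16), led by Cox11, a copper chaperone of complex IV (-0.82, adjusted p = 5.4e-08). Of 78 mitochondrial ribosomal protein genes, 31 were lower and 8 higher (median -0.10), led by Mrps22 (-0.46). Of 22 genes for transcription, replication and RNA stability of the mitochondrial DNA, 7 were lower and 5 higher (median -0.02), neither share above that of all genes: the DNA-packing factor Tfam read 4.68 to 5.70 FPKM in TG and 9.10 to 9.54 in Sp5C (-0.70, adjusted p = 8.4e-08), and the RNA-degrading Pnpt1 was higher in TG (0.59, adjusted p = 7.5e-07), as was Tfb1m (0.77, adjusted p = 4.7e-05). Tfam in SSp5C replicate 1 was 9.36 FPKM, inside the range of the other Sp5C libraries.

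Of 11 nuclear regulators of mitochondrial genes, 5 were lower and 4 higher, shares near those of all genes for a list of this size. The coactivator Ppargc1a read 7.75 to 9.88 FPKM in TG and 15.1 to 17.8 in Sp5C (-0.80, adjusted p = 2.1e-07), and the receptors Esrrb (-1.04) and Esrrg (-1.19, adjusted p = 2.3e-06) were lower too, while Gabpa (0.46, adjusted p = 1.3e-05) and Yy1 (0.27, adjusted p = 3.5e-05) were higher in TG and Nrf1 differed by 0.09 (adjusted p = 0.23). Among 17 glycolytic genes, 10 were lower and 4 higher (median -0.38). Aldoc, an aldolase that astrocytes are known to express, had the largest difference (-3.40), and Ldha, the lactate dehydrogenase subunit, was higher in TG at 115 ± 7.4 against 42.4 ± 4.0 FPKM (SD, n = 6; 1.42, adjusted p = 1e-09). Of 4 uncoupling carriers, Ucp2 was higher in TG (28.2 against 10.0 FPKM, 1.39, adjusted p = 5.1e-07) and 2 were lower. For C against S, none of these genes passed in TG, and 1 did in Sp5C: the mitochondrial ribosomal gene Mrps10, at 3.67, 5.49 and 6.22 FPKM in SSp5C and listed at 0 in all 3 CSp5C libraries (limma adjusted p = 0.0088). It is also listed at 0 in 3 of the 6 TG libraries, 2 of STG and 1 of CTG.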

How the data were processed

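Of the deposited files, 3 tables were used, 1 of protein-coding transcripts and 2 of noncoding transcripts, each with FPKM values per transcript in 12 libraries. The authors deposited FPKM and no counts. Per the submitters' processing notes, HISAT2, StringTie 1.3.1 and Cuffdiff 2.1.1 were used; no source used here gives the genome build, the annotation or the handling of reads that fit several places. Many OXPHOS genes have processed pseudogenes, so their levels carry that uncertainty. The low FPKM values showed no steps of whole reads, so the depth is unknown.

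Transcripts were summed per gene, and log2(FPKM + 1) of genes with a mean of at least 1 FPKM over the libraries compared was fitted with limma 3.58.1 in R 4.3.3 (trend and robust moderation) on every gene of the protein-coding table. Calls are Benjamini-Hochberg adjusted p under 0.05 over all genes, two-sided; intervals are 95%. The fit was tested on simulated data. TG against Sp5C and the difference of differences used 12 libraries with 4 group means, and C against S used the 6 libraries of a tissue. Genes were named by rule: every mitochondrial gene, the 2 highest and 2 lowest differences of each complex, the 3 smallest p in each direction, the isoform sets, the 5 most abundant nuclear genes, complex II, and 3 genes of smallest p per pathway list, of which 1 is not reported here; the genes whose promoters are shown, the letters of the NRF1 motif, regulators beyond the first 3 and Mrps10 were chosen after their values were seen. The members and lists were chosen with earlier results of these data known. Alternatives covered the pseudocount, the filter, scaling, quantile normalization, the highest transcript in place of the sum, moderation, a replicate block, a joint fit, and each library left out.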

Additional observations from a re-analysis of the deposited data

Results flagged for a closer look

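Within a tissue, a value was flagged where the gap between the highest or lowest of the 6 libraries and its nearest neighbour was a larger share of the whole range than Dixon's critical value at 95% allows (a limit that chance passes in about 5% of groups; the C and S libraries were pooled for it, since groups of 3 are not tested). In TG 9 of 50 values checked were flagged, and in Sp5C 17 of 50. The values share libraries and are not independent.

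In TG, 7 of the 9 flags were the highest value of a nuclear gene in CTG replicate 3. They were Cox6c at 215 FPKM (others 146 to 155), Uqcr11 at 109 (88.7 to 92.8), Cox6b1 at 189 (157 to 165), Atp5g3 at 194 (159 to 171), Atp5a1 at 128 (107 to 114), Sdha at 79.3 (66.3 to 70.4) and Sdhd at 55.5 (46.0 to 49.0). The same library had the lowest mt-Nd6, at 702 FPKM (841 to 890). Cox4i1 was lowest in STG replicate 2, at 136 FPKM (232 to 290).

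In Sp5C, 13 of the 17 flags fell in SSp5C replicate 1. It had the lowest mt-Atp6, at 602 FPKM (others 4521 to 5956), mt-Atp8 at 1328 (2882 to 3493), mt-Nd2 at 1021 (2031 to 2720), mt-Nd3 at 650 (1309 to 1837), mt-Nd4 at 1735 (2649 to 3414), mt-Nd5 at 988 (1781 to 2228) and mt-Cytb at 2817 (4857 to 5844), and the lowest log2 ratio of mitochondrial to nuclear sums, at 1.80 (2.50 to 2.83). Among nuclear genes it had the lowest Cox7b, at 84.3 FPKM (102 to 113), and Atp5k, at 59.9 (78.5 to 88.9), and the highest Sdhb, at 75.5 (61.5 to 65.7), Atp5a1, at 167 (150 to 154), and Ndufb3, at 60.9 (49.998 to 52.7).

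The other 4 flags were single entries. Ndufs3 is listed at 0 in CSp5C replicate 3 (20.1 to 27.7 FPKM in the others), and the same library had the lowest Cox8a, at 214 FPKM (241 to 250). Cox6c was lowest in CSp5C replicate 2, at 219 FPKM (243 to 252), and Cox7a2l in SSp5C replicate 2, at 1.24 FPKM (70.5 to 82.7).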

How the results depend on the processing

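The count of OXPHOS genes called between tissues (72) stayed within 65 and 76 over all alternatives, from 66 to 72 when each library was left out in turn, and the C against S counts and the difference of differences stayed at 0. Of the 31 named genes called between tissues, 19 kept the call in every fit and 12 lost it in at least 1, and 7 of 13 uncalled genes gained one. Quantile normalization moved the most values: the mitochondrial median between tissues became -0.13, mt-Co2 became 0.000637, the nuclear median of CSp5C minus SSp5C became 0.0086 and that of the difference of differences 0.037. The 13 mitochondrial genes rank between 1 and 24 in every library, where this method equalizes values by construction. Leaving out single libraries put the nuclear median of the difference of differences between 0.039 (without CTG replicate 3) and 0.14, and Cox7a2l between -0.17 (without SSp5C replicate 2) and 1.14. Without CTG replicate 3 and SSp5C replicate 1 together, an alternative chosen after seeing the data, those medians were 0.024 for nuclear and 0.048 for mitochondrial genes, and 76 genes were called between tissues. With the highest transcript in place of the sum, Atp5d (0.07, limma adjusted p = 0.57) and Cox6c (-0.38, adjusted p = 0.19) no longer passed. For Cox6c the transcript used was ENSMUST00000014457, which read 207 FPKM in CTG replicate 3 and 62.9 to 71.6 in the other TG libraries. The cause of these losses was not tested. Signs of uncalled genes also changed, in 26 of 268 refitted values for CTG minus STG, 15 of 267 for CSp5C minus SSp5C, 20 of 918 between tissues and 18 of 357 for the difference of differences. The 918 values between tissues include those of the 31 called genes, so the share among the 13 uncalled genes is larger. With the replicate number as a block, 70 genes were called between tissues and 0 in the other comparisons. The numbers do not pair the samples throughout: deviations of same-numbered libraries correlated at 0.089, 0.19 and -0.15 for STG with CTG, -0.13, 0.066 and 0.10 for SSp5C with CSp5C, -0.080, -0.20 and -0.023 for STG with SSp5C, and 0.33, 0.23 and 0.38 for CTG with CSp5C. For unlike numbers the values ran from -0.30 to -0.0071 for CTG with CSp5C, and both signs occurred in the other pairs of groups. Deviations within a group sum to 0, so values for like and unlike numbers are not independent. Whether C libraries of like number share a source was not tested, and fits without the block treat all libraries as independent. Depth is unknown, and with 3 libraries a group the intervals of the C against S differences set what could be seen.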
